A study of Mus musculus with 3 samples.

Results

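Nucleosome remodelling complexes use the energy of ATP to slide, eject or exchange nucleosomes and so set which DNA is open to transcription factors and polymerase. The genes described here are 38 of the 21901 genes with a protein-coding transcript, and 55450 genes were annotated in all. They were chosen by symbol alone: Smarc followed by a letter from a to e, Chd or Arid followed by a number, or Ino80. By role they fall into 12 SWI/SNF subunits, 4 ISWI-type and other Smarca ATPases, 10 CHD ATPases, 5 INO80 genes and 7 ARID genes outside SWI/SNF. A symbol rule takes in Arid genes that are DNA-binding cofactors of other complexes, and it leaves out remodelling subunits with other names, which are given as partner lists.

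The data were total RNA-seq of chromatin-associated RNA, depleted of ribosomal RNA. The cells were C57BL/6J macrophages grown from bone marrow, and they had been treated with 100 ng/ml lipid A, the part of lipopolysaccharide that activates TLR4, for 15 min. There were 3 replicate libraries in this single group, made from 1 µg, 250 ng and 500 ng of RNA for replicates 1, 2 and 3. The labels carry the same donor identifier for all 3, age and sex were not collected, and no unstimulated library was analysed here, so no value below is a response to lipid A.

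SWI/SNF complexes carry 1 of a pair of ATPases, BRG1 or BRM, around a shared core. The ARID subunit differs between the canonical and polybromo forms of the complex. ISWI, CHD and INO80 ATPases space nucleosomes, pair with histone deacetylases in NuRD, or exchange histone variants. In macrophages, SWI/SNF and the CHD4-containing NuRD complex are known for their parts in switching inflammatory genes on and in limiting them. RNA in the chromatin fraction is rich in transcripts still being made or processed, so a level here is not the amount of finished mRNA or of protein.

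The macrophage identity given by the labels was checked on 8 marker genes, all of which were at 1 TPM or more in all 3 libraries, with a median of 55.2 ± 7.38 TPM (SD, n = 3). None of the T and NK cell, B cell, neutrophil, erythroid, stromal and endothelial or neuronal markers reached 1 TPM in all libraries of the gene table, and Cd3e, Cd3g, Pax5 and Ly6g were at 0 there. In the second deposited quantification, 2 of the 6 T and NK cell markers and 2 of the 5 stromal and endothelial markers reached 1 TPM in all libraries, and none of the other 4 lists' did. Depth was 10974934, 21376404 and 14376665 expected counts in replicates 1, 2 and 3. TPM, a measure of transcript abundance per unit of length, is scaled over every feature of a table, and protein-coding genes held 23.9%, 16.6% and 25.3% of it in these libraries. A low TPM of many genes in replicate 2 therefore goes with its smaller protein-coding share.

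Most remodelling genes were present on chromatin. Of the 38 genes, 33 were at 1 TPM or more in all 3 libraries, against 42.6% of all protein-coding genes, which is 9334 of 21901. The remodelling genes that fell short were Ino80c and Smarcd3, which straddled the threshold, and Chd5, Smarca1 and Arid3c, which lay under it. Their median level was 22.8, 15.9 and 22.4 TPM in replicates 1, 2 and 3, a mean of 20.3 ± 3.84 TPM (SD, n = 3), against 0.56 ± 0.16 TPM for all protein-coding genes. Among genes at 1 TPM or more in all libraries the gap was smaller, with a median of 24.3 ± 6.15 TPM for 33 remodelling genes and 10.1 ± 2.45 TPM for 9334 protein-coding genes. The 81 genes of Mediator, RNA polymerase II, TFIID and Integrator had a median of 6.41 ± 1.67 TPM, and 63 histone-modifying enzyme genes one of 16.0 ± 2.57 TPM. Detection at 1 TPM in all libraries was alike, at 86.8% of the remodelling genes, 85.2% of those 81 and 92.1% of those 63. Together the 38 genes took 0.487 ± 0.0192% of protein-coding TPM while they are 0.174% of protein-coding genes. In bulk RNA, fewer cells of a type and less RNA per cell cannot be told apart.

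**Figure D1:**
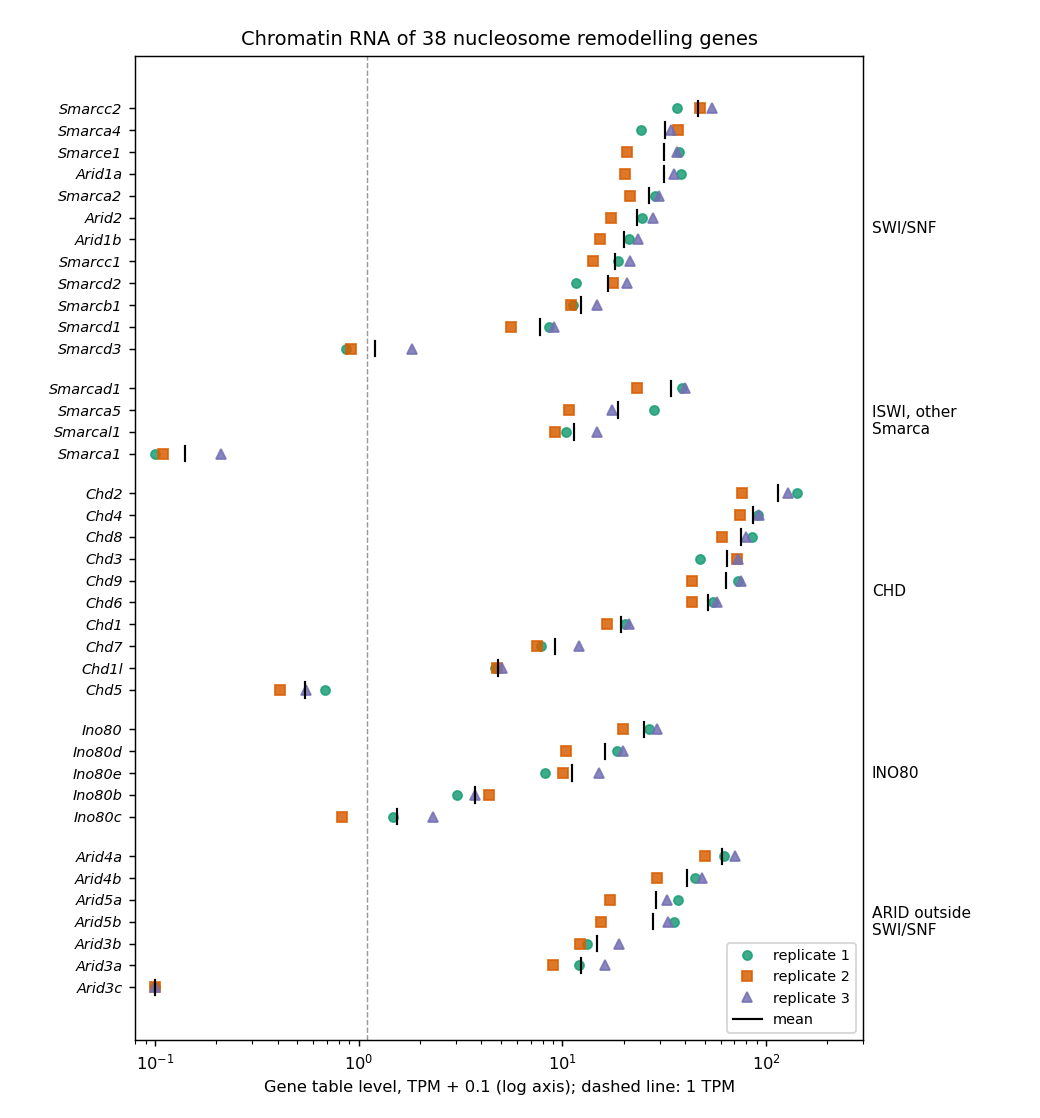
Level of each of the 38 genes in the 3 libraries, as gene table TPM plus 0.1 on a log axis, grouped by role and ordered by the mean (black bars). The CHD genes Chd2, Chd4 and Chd8 lie farthest to the right, and Chd5, Smarca1 and Arid3c lie left of the dashed line at 1 TPM.

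The pair of SWI/SNF ATPase genes stood at similar levels, and which was higher depended on the quantification. Smarca4 (chr9:21616169-21704230, plus strand, mm10), which encodes BRG1, had 24.4, 36.7 and 34.1 TPM in replicates 1, 2 and 3. Smarca2 (chr19:26605050-26778322, plus strand), which encodes BRM, had 28.5, 21.3 and 29.7 TPM. Smarca4 was thus the higher in replicates 2 and 3 and the lower in replicate 1, with a mean log2 ratio of Smarca4 to Smarca2 of 0.25 ± 0.51 (SD, n = 3). Without replicate 2 the ratio was -0.014. The second deposited quantification gave 31.5, 38.02 and 37.7 TPM for Smarca4 and 75.1, 40.1 and 70.8 TPM for Smarca2, a log2 ratio of -0.75 ± 0.60, with Smarca2 the higher in all 3 libraries. Restricted to protein-coding isoforms of the first transcript table, the log2 ratio was 1.79 ± 0.71, with Smarca4 the higher in all 3. Smarca2 has 46 annotated isoforms, 27 of them protein-coding, and gave only 34.7% of its TPM to coding ones. All 4 annotated isoforms of Smarca4 are protein-coding, so its share of 100% is fixed by the annotation, which enters the coding-only ratio.

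In what follows, an order of genes is called resolved where it was the same in all 3 libraries and the mean log2 ratio exceeded its SD. No p-value is given for such an order, because an exact two-sided sign-flip test on 3 libraries cannot go below 0.25.

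The ARID subunits of SWI/SNF were ordered Arid1a, Arid2 and Arid1b. Arid1a (chr4:133679008-133756769, minus strand), the DNA-binding subunit of the canonical complex, had 38.3, 20.3 and 35.4 TPM. Its paralogue and alternative Arid1b had 21.2, 15.2 and 23.3 TPM, and Arid2, the ARID subunit of the polybromo form, had 24.6, 17.3 and 27.8 TPM. Arid1a was the highest of these 3 genes in every library. The log2 ratio was 0.63 ± 0.22 for Arid1a to Arid1b and 0.41 ± 0.21 for Arid1a to Arid2, both resolved, also in the second quantification and in protein-coding isoforms alone.

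The scaffold subunits differed more. Smarcc1, which encodes BAF155, had 18.8, 14.0 and 21.4 TPM, while Smarcc2, which encodes BAF170, had 36.5, 47.1 and 54.5 TPM. Smarcc2 had the highest mean of the SWI/SNF genes in the gene table, but Arid1a and Smarce1 were above it in replicate 1, and Smarca2 was above it in replicates 1 and 3 of the second quantification. The log2 ratio of Smarcc1 to Smarcc2 was -1.35 ± 0.39, and no value of Smarcc1 reached any value of Smarcc2. In protein-coding isoforms the gap widened to -2.51 ± 0.42, since Smarcc1 gave most of its TPM to retained-intron isoforms.

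The Smarcd genes encode alternative BAF60 subunits that link the complex to transcription factors. Smarcd2, the form known for its part in granulocyte development, had 11.6, 17.6 and 20.7 TPM. Smarcd1 had 8.47, 5.5 and 8.98 TPM and Smarcd3, the form of heart and neurons, had 0.77, 0.82 and 1.72 TPM. All 3 libraries showed the order Smarcd2, Smarcd1, Smarcd3, with a log2 ratio of 1.11 ± 0.62 for Smarcd2 to Smarcd1 and 2.86 ± 0.55 for Smarcd1 to Smarcd3. Smarcd3 rests on 22.3, 63.9 and 46.2 expected counts, with a posterior SD of 4.58, 7.92 and 6.41 counts in the deposited table. It overlaps Chpf2 on the opposite strand over 3739 bases, and Chpf2 held 410, 1149 and 876 expected counts. The coding isoform Smarcd3-201, the longest, was listed at 0 in every library. The use of strand in counting is not given, so how much of the Smarcd3 signal is its own was not tested.

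Of the remaining core subunits, Smarce1 was higher than Smarcb1 in every library. Smarcb1, the SNF5 core subunit that contacts the nucleosome, had 11.2, 10.9 and 14.7 TPM. Smarce1, an HMG-box subunit, had 37.5, 20.7 and 36.6 TPM. Of the TPM of Smarce1, 85.9% was in isoforms of the class processed transcript, led by the 481-base Smarce1-205, and its longest coding isoform Smarce1-201 had only 3.93, 3.43 and 5.63 TPM.

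**Figure D2:**
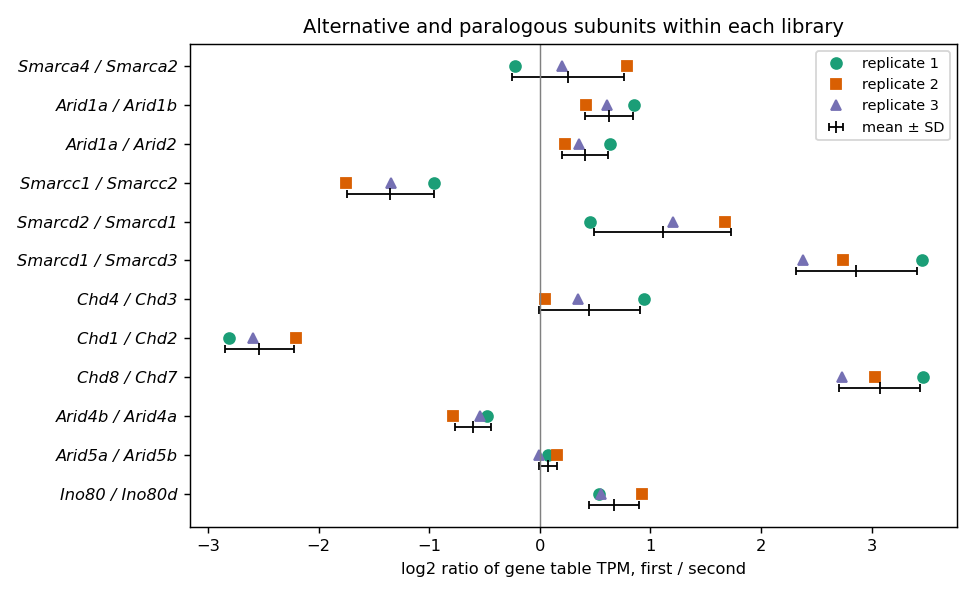
Log2 ratio of gene table TPM for 12 pairs of paralogous or alternative subunits, 1 point per library, with the mean and SD as a black bar under the points. Smarcc1/Smarcc2, Chd1/Chd2 and Arid4b/Arid4a lie below 0 in all 3 libraries, and Smarca4/Smarca2 lies on both sides of 0.

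Of 12 such pairs, 9 were resolved in the gene table. All 12 were resolved in the second quantification, and these included the same 9 in the same order. In protein-coding isoforms alone 11 pairs had a ratio, and 8 of the 9 kept a resolved order, the ninth being Smarcd1 to Smarcd3, for which no ratio could be formed.

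The ISWI pair was the most one-sided. Smarca5, which encodes the SNF2H ATPase, had 28.1, 10.7 and 17.4 TPM. Its paralogue Smarca1, which encodes SNF2L and is known from the brain, had 0, 0.01 and 0.11 TPM, on 0, 1 and 3 expected counts. With Smarca1 set at a floor of 3 counts per library, Smarca5 was 299-fold, 423-fold and 157-fold higher in replicates 1, 2 and 3. Since Smarca1 held 1 and 3 counts in replicates 2 and 3, the folds there are not lower bounds. The promoter windows of this pair differ in CpG content. They are shown with that of Chd5, another gene under 1 TPM, from RefSeq on GRCm38.p6, running from 250 bases before to 50 after the start, with CG in capitals.
Smarca5, chr8:80739410-80739709, minus strand: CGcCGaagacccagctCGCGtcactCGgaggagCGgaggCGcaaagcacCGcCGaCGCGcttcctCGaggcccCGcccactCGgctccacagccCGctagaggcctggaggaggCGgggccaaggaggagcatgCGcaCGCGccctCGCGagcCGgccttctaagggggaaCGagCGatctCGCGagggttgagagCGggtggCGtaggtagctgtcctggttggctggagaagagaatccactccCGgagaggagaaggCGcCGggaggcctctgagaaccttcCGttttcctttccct
Smarca1, chrX:47892564-47892863, minus strand: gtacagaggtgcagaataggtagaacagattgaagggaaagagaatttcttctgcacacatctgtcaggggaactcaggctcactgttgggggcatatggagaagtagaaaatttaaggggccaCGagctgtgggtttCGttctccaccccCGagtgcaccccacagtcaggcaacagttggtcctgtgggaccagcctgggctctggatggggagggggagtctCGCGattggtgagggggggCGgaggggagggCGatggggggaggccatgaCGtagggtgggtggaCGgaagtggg
Chd5, chr4:152338404-152338703, plus strand: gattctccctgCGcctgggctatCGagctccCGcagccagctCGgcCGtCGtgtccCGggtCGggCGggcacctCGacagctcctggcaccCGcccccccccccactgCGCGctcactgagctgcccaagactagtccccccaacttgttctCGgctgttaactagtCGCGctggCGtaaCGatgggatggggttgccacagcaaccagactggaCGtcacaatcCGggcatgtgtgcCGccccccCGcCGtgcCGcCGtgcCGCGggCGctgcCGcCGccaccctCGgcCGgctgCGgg
There were 32 CG in the window of Smarca5, 9 in that of Smarca1 and 33 in that of Chd5. A low level thus went with few CG in the Smarca1 window and with many in that of Chd5. The Smarca1 window lies wholly inside the annotated gene, chrX:47809368-47892974, so its 9 CG need not describe the annotated 5′ end. Over the 28 remodelling genes with a RefSeq window the median was 26.5 CG per 300 bases, from 4 in Smarcd2 to 48 in Smarcc2, using the window with most CG for each gene. It was 15 over 16519 protein-coding genes, 22.5 over the 8166 of these at a mean of 1 TPM or more and 5 over the other 8353. Arid2, Arid3a, Arid4a, Chd1, Chd2, Chd3, Chd7, Ino80c, Ino80d and Smarce1 were not matched. The only Smarcd2 window, chr11:106267583-106267882, lies inside the annotated gene, chr11:106263179-106272972 on the minus strand, and not at its 5′ end. Windows of other genes, among them Smarcc1 and Smarcd3, also lie wholly inside the annotated gene.

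Other letters of these windows were searched on both strands over every start of a gene. TATAAA was in 2 of 28 remodelling genes, Arid5b and Smarcd2 (7.14%), and in 14.3% of the protein-coding genes. The match of Smarcd2 is in its window inside the gene. CCGGAA, the core of ETS factor sites, was in 9 of 28 (32.1%), against 21.5%. TGANTCA, the AP-1 site, was in Smarca2 and Smarcb1 (7.14%), against 8.17%. None of the 3 motifs contains another, and a match is a description of the window only.

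Smarcad1 and Smarcal1 are single-subunit ATPases outside ISWI. Smarcad1, known for chromatin opening at DNA ends and for heterochromatin upkeep, had 38.7, 23.2 and 39.98 TPM. Smarcal1, which rewinds DNA at stalled replication forks, had 10.3, 9.08 and 14.7 TPM. Smarcad1 was higher than Smarcal1 and than Smarca5 in every library.

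By mean gene table TPM, the CHD family held the 5 highest of the 38 genes. In the second quantification, however, Arid4a, at 95.6 ± 14.6 TPM, and Smarcad1, at 71.6 ± 21.3 TPM, lay above Chd3, at 67.8 ± 10.02 TPM. The CHD family reached a summed 526, 399 and 543 TPM in the gene table, 489 ± 79.0 TPM on average. Chd2 (chr7:73426638-73541830, minus strand), which encodes an ATPase that deposits the histone variant H3.3, had 141, 75.8 and 128 TPM. Chd4 (chr6:125095981-125130591, plus strand), which encodes the main ATPase of NuRD, had 91.3, 74.6 and 92.3 TPM. Chd8 (chr14:52198151-52257780, minus strand), a repressor of beta-catenin target genes, had 85.5, 60.7 and 79.9 TPM. The order Chd2, Chd4, Chd8 was the same in all 3 libraries, though in replicate 2 Chd2 exceeded Chd4 by only 0.02 on the log2 scale. In the second quantification the means of Chd8, 145 ± 32.2 TPM, and Chd9, 130 ± 44.6 TPM, lay above that of Chd4, 100 ± 20.0 TPM.

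The NuRD ATPase genes Chd4 and Chd3 were not resolved. Chd3 had 47.4, 72.1 and 72.5 TPM, close to Chd4 in replicate 2 and well under it in replicate 1, with a log2 ratio of Chd4 to Chd3 of 0.45 ± 0.46. Chd5, the NuRD ATPase of neurons, had 0.58, 0.31 and 0.45 TPM on 50, 66 and 46 expected counts. Its signal was 84.7% in isoforms of the class processed transcript, and its longest coding isoform Chd5-202 was listed at 0.

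Chd1 and Chd7 were the low partners of their pairs. Chd1, which binds methylated histone tails at active genes and spaces nucleosomes behind polymerase, had 20.2, 16.5 and 21.1 TPM, giving a log2 ratio to Chd2 of -2.54 ± 0.31. In protein-coding isoforms the ratio was -1.66 ± 0.08. Chd7, the gene mutated in CHARGE syndrome in humans, had 7.76, 7.43 and 12.0 TPM, and the log2 ratio of Chd8 to Chd7 was 3.07 ± 0.37. Both orders held in every library.

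The other CHD genes ranged widely. Chd9 had 72.7, 43.4 and 75.3 TPM and Chd6 had 55.0, 43.3 and 57.4 TPM. Chd1l, which encodes a remodeller recruited by poly(ADP-ribose) at DNA damage, had 4.56, 4.68 and 4.98 TPM. In deposited TPM Chd1l had an SD of 0.05 on the log2(TPM + 1) scale. Rescaled to protein-coding TPM it was 19.1, 28.1 and 19.7, highest in replicate 2.

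The INO80 genes were led by the ATPase gene itself. Ino80 had 26.6, 19.7 and 29.0 TPM and Ino80d, an accessory subunit, had 18.4, 10.4 and 19.8 TPM, a log2 ratio of 0.67 ± 0.22 that was resolved. The accessory subunit gene Ino80e had 8.13, 9.96 and 15.0 TPM. Ino80b had 2.93, 4.26 and 3.63 TPM and Ino80c had 1.38, 0.73 and 2.21 TPM, on 34 to 75 expected counts. Ino80 exceeded each of these accessory genes in every library.

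Among ARID genes outside SWI/SNF, Arid4a and Arid4b, cofactors of the SIN3 deacetylase complex, were highest. Arid4a had 62.4, 50.1 and 70.4 TPM and Arid4b had 44.7, 29.0 and 48.5 TPM. The log2 ratio of Arid4b to Arid4a was -0.60 ± 0.16 and was resolved, also in the second quantification at -1.02 ± 0.17 and in protein-coding isoforms at -1.36 ± 0.01.

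The Arid5 genes stood level with each other. Arid5a, whose protein stabilises inflammatory mRNAs such as that of Il6, had 37.0, 17.1 and 32.6 TPM. Arid5b, which encodes a partner of the histone demethylase PHF2, had 35.2, 15.3 and 32.8 TPM. Their log2 ratio was 0.07 ± 0.08 and was not resolved, and both were lowest in replicate 2.

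Arid3b had 13.1, 12.1 and 18.9 TPM. Arid3a, known as Bright from immunoglobulin genes of B cells, had 12.0, 8.85 and 16.1 TPM. Arid3c had no count in any library, which allows up to 3 counts in each. All of Arid3c lies inside an overlap of 7307 bases with Il11ra1 on the opposite strand, and Il11ra1 held 152, 414 and 226 expected counts.

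Across all 38 genes, 35 pairs of neighbours in the order of mean TPM had a ratio, and 14 of these were resolved. Neighbours were not resolved along the run of Chd8, Chd3, Chd9 and Arid4a, nor along that of Smarcad1, Smarca4, Smarce1 and Arid1a. Arid4a was resolved above Chd6, and Arid1a above Arid5a.

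Part of this RNA was assigned to retained-intron isoforms, a class of the annotation for transcripts that carry intron sequence. Such isoforms took 41.8%, 27.9% and 35.2% of the remodelling genes' TPM in replicates 1, 2 and 3, or 34.9 ± 6.97%, against 39.4 ± 2.53% for all protein-coding genes and 41.9 ± 1.17% for all partner subunits. All protein-coding genes had 41.9%, 36.8% and 39.3%, so the remodelling genes were the lower in every library, though barely in replicate 1. In expected counts, which give long coding isoforms more weight, the share was 19.1 ± 5.69%, against 25.1 ± 3.71%. It was again the lower in every library. In the second quantification the share was 34.4 ± 4.70%, against 34.2 ± 1.2%. There the remodelling genes were the higher in replicates 1 and 3 and the lower in replicate 2.

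Retained-intron in name does not mean a complete intron of a coding isoform. The 38 genes have 342 annotated isoforms, 91 of them retained-intron and 177 protein-coding, with a median length of 1083 bases for the retained-intron and 1965 for the protein-coding ones. Only 29 of the 91 span a whole intron of a coding isoform of their gene, and these 29 held 36.7 ± 0.970% of the retained-intron TPM. The other 62 span no whole intron of a coding isoform, and where they begin and end was not tested. The 29 isoforms cover 34 distinct introns with a median length of 342.5 bases, from 75 to 4037, and all 34 start with GT and end with AG.

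The exon-intron junctions of whole introns with coding exons on both sides are shown, 1 isoform for each of 8 genes, because reads across them are what sets unspliced RNA apart from spliced RNA. Each line has 15 bases on either side of the junction from the GENCODE M21 transcript, 5′ to 3′, with the first and last intron bases, GT and AG, in capitals. Coordinates are those of the intron on mm10, and the isoform of highest mean TPM that meets this condition was taken for each gene. Chd2-208, at 41.1, 12.3 and 33.1 TPM, and Arid5a-215, at 13.2, 5.39 and 12.5 TPM, also span a whole intron and were higher than the isoforms shown for their genes, but coding exons do not flank it on both sides.
Chd2-217, chr7:73502135-73503380, minus strand, 5′ end of the intron: tgggaaagaaaggagGTttgtgtctttggg
Chd2-217, 3′ end of the intron: tgaatccttttgcAGccactggagcgtcta
Smarcc2-204, chr10:128474410-128474682, plus strand, 5′ end of the intron: gagaccaccggcaagGTgcagccagtttag
Smarcc2-204, 3′ end of the intron: cctccatattcatAGgacgaggatgagaac
Arid4b-207, chr13:14191257-14193365, plus strand, 5′ end of the intron: agaagggaaaaggcaGTaagtataaaattt
Arid4b-207, 3′ end of the intron: ttctttctctttcAGcaaacagtagtgaca
Chd8-202, chr14:52213024-52213252, minus strand, 5′ end of the intron: tctcctggtatatggGTaagatgcagcttt
Chd8-202, 3′ end of the intron: ttcctgttttgttAGttggggacgttggag
Ino80e-209, chr7:126857723-126857873, minus strand, 5′ end of the intron: gccagcccctaagagGTaagcaggagccag
Ino80e-209, 3′ end of the intron: tgcctccttcaacAGgctttcccctgcaga
Arid1a-203, chr4:133695662-133695915, minus strand, 5′ end of the intron: ctgctgcagtgccagGTaccctcagtactg
Arid1a-203, 3′ end of the intron: ttttgtctggagcAGgcaaccagatgccac
Arid5a-206, chr1:36316328-36318083, plus strand, 5′ end of the intron: cccacccagctccagGTgagttagacaaat
Arid5a-206, 3′ end of the intron: tctggtgtcttacAGgtgacaggccgccgc
Arid3b-206, chr9:57810238-57810408, minus strand, 5′ end of the intron: cgagattttgccaagGTctgtaatgtcttg
Arid3b-206, 3′ end of the intron: gggtctggcctgcAGctgtatgaactagac
Chd2-217, with an intron of 1246 bases, had 19.3, 7.19 and 14.1 TPM, and was lowest in replicate 2. Smarcc2-204, with an intron of 273 bases, had 6.33, 8.99 and 12.3 TPM. Arid4b-207, with an intron of 2109 bases, had 8.45, 4.76 and 9.40 TPM on 502, 652 and 637 expected counts. These had the highest means of the 8 isoforms shown. Chd8-202 had 10.3, 4.06 and 6.28 TPM across an intron of 229 bases. Ino80e-209 spans 3 introns, of which one of 151 bases is shown. It took 374, 724 and 601 of the 438, 844 and 727 expected counts of Ino80e, so most reads of that gene were assigned to an isoform with intron sequence. Arid1a-203 had 5.75, 2.74 and 6.74 TPM, Arid5a-206 had 6.32, 3.55 and 5.35 TPM, and Arid3b-206 had 4.81, 3.57 and 5.26 TPM.

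Individual genes differed far more than the group average. Among 32 genes with 50 or more expected counts in every library, 27 have an annotated retained-intron isoform, and their median share was 41.7 ± 7.49%, against 47.6 ± 3.34% over 5781 protein-coding genes chosen the same way. The share was above 50% in all libraries in 7 of the 27, or 25.9%, against 34.8% of the 5781. The highest shares of TPM belonged to Arid5a at 72.9%, 71.3% and 71.2% and Smarca5 at 77.8%, 64.0% and 63.1%. Smarcc1 had 64.0%, 65.4% and 63.2%. Arid5b followed with 72.0%, 57.3% and 61.6% and Arid1b with 71.2%, 57.9% and 59.8%. Arid5a and Smarcc1 barely moved between libraries, while Smarcb1 ranged from 34.0% in replicate 2 to 63.1% in replicate 1. In expected counts the order differed. The mean share was then 63.8% in Arid5a, 48.4% in Smarcc1, 40.5% in Arid5b, 20.9% in Smarca5 and 14.4% in Arid1b. It was 87.6% in Ino80e and 81.3% in Smarcb1.

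At the other end, Smarca4, Arid4a, Chd1, Arid3a and Smarce1 have no annotated retained-intron isoform, so their share of 0 is fixed by the annotation and says nothing of their introns. Among those that have one, Ino80d had 22.7%, 13.2% and 16.0% of its TPM in such isoforms. Chd7 had 21.1%, 14.5% and 18.9%, and Smarcc2 had 17.3%, 19.1% and 22.5%. The most abundant isoform was protein-coding in 22 of the 32 genes, retained-intron in 9 and a processed transcript in 1. The longest coding isoform reached 1 TPM in all libraries in 23 of the 32.

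**Figure D3:**
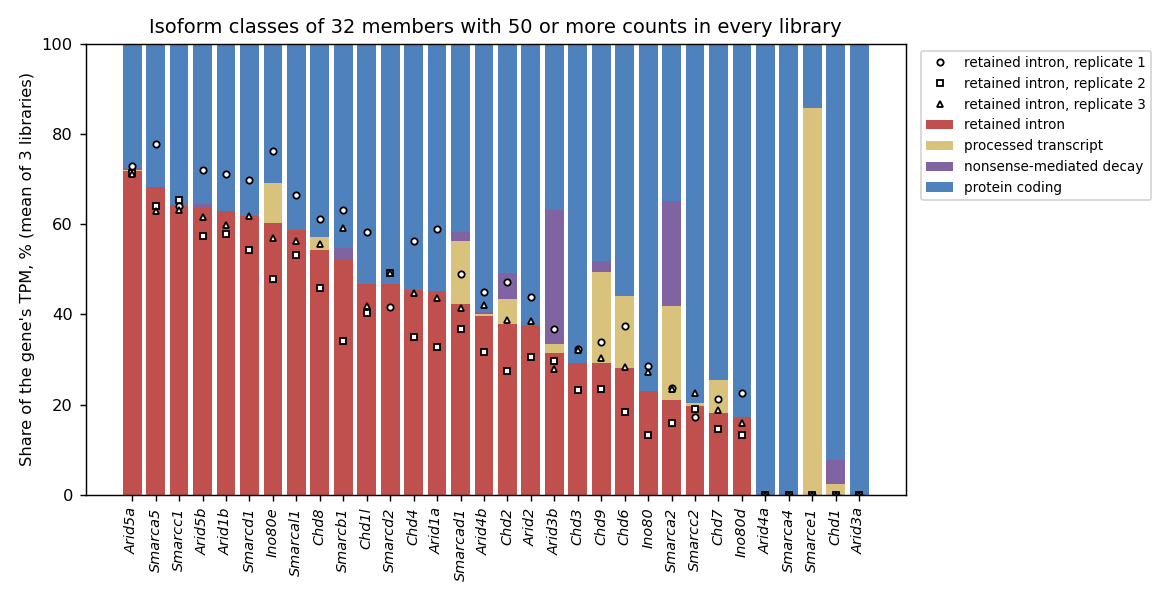
Share of each gene's TPM in 4 isoform classes, as the mean of 3 libraries, for the 32 genes with 50 or more expected counts in every library. Open symbols give the retained-intron share of each library. Shares run from 71.8% in Arid5a to 0 in the 5 genes at the right with no such isoform annotated, and circles, replicate 1, are mostly the highest.

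The retained-intron share moved with the library. It was highest in replicate 1 in 24 of the 27 genes (88.9%), against 57.2% of the 5781 protein-coding genes, and lowest in replicate 2 in 21 of the 27 (77.8%), against 55.1%. In the group as a whole, the coding share was 49.6%, 63.6% and 56.3% in replicates 1, 2 and 3. Replicate 1 has the largest starting RNA and the lowest depth, and replicate 2 the smallest starting RNA and the highest depth. The part of starting amount and depth in this difference was not tested, and with 1 library each they cannot be told apart.

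Levels also moved with the library. In deposited TPM the median deviation of the remodelling genes from their 3-library mean was 0.08, -0.28 and 0.24 on the log2(TPM + 1) scale in replicates 1, 2 and 3. For the 35 at a mean of 1 TPM or more it was 0.09, -0.29 and 0.25, beside 0.11, -0.36 and 0.26 for the 10235 protein-coding genes at that level. Scaled by TMM on the counts, the same 35 genes deviated by -0.24, 0.23 and -0.03 and the 10235 genes by -0.07, 0.06 and 0.01, so the direction turned round for the 35 in each library and for the 10235 in replicates 1 and 2. Rescaled so that protein-coding TPM sums to the same total in each library, the deviations were -0.05, 0.04 and 0.03, beside -0.01, -0.06 and 0.07.

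On that rescaled measure the genes did not move as a block. Smarca4 had 102, 220 and 135 rescaled TPM and Chd3 had 199, 433 and 287, and both were highest in replicate 2 and lowest in replicate 1. Smarcc2 and Smarcd2 showed the same order. Arid5a, with 155, 103 and 129 rescaled TPM, and Arid5b, with 147, 92.2 and 130, ran the other way. The order of Smarca4, Arid5a and Arid5b also held with TMM, with DESeq2 size factors and in the second quantification. Smarcc2, Smarcd2 and Chd3 were lowest in replicate 1 on all 4 scales but highest in replicate 3 in the second quantification. The order of Arid1a and Chd2, highest in replicate 1 and lowest in replicate 2 in rescaled TPM, was different when counts were scaled by TMM, which put both highest in replicate 2.

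**Figure D4:**
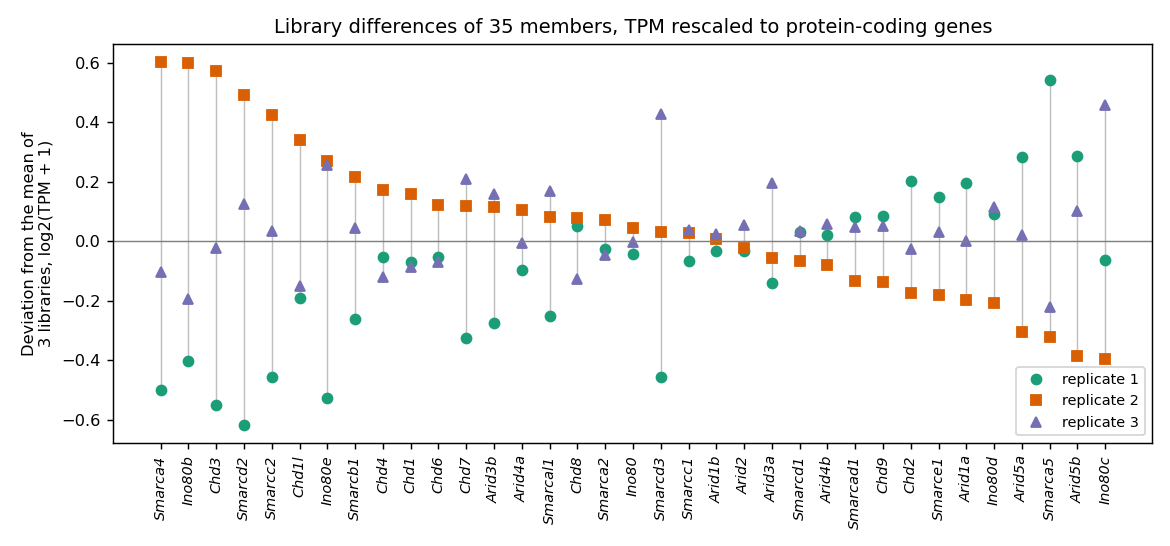
Deviation of 35 remodelling genes from their own mean over 3 libraries, in log2(TPM + 1) after rescaling to protein-coding TPM, ordered by replicate 2. Smarca4, Ino80b and Chd3 at the left are highest in replicate 2 and low in replicate 1, and of the 4 genes farthest right Arid5a, Smarca5 and Arid5b are highest in replicate 1 and Ino80c in replicate 3.

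Of the 35 genes, 15 were highest in replicate 2 (42.9%), against 31.9% of the 10235, and 18 were lowest in replicate 1 (51.4%), against 40.7%. The median SD on the log2(TPM + 1) scale was 0.19 for remodelling genes and 0.29 for the 10235, both after rescaling. The sets were not matched for level or counts, and the part of these in the difference was not tested. In deposited TPM the largest SDs were 0.66 in Smarca5, 0.64 in Arid5b and 0.57 in Arid5a. These 3 are also among the 5 genes with the highest retained-intron shares, but the overlap was not kept after rescaling. The widest ranges between libraries on the rescaled log2 scale were then those of Chd3, Smarcd2 and Smarca4. Chd3 ranged over 1.12, against 0.86 in Smarca5, 0.67 in Arid5b and 0.59 in Arid5a. Smarca4 has no annotated retained-intron isoform. A link between spread and retained-intron share was not tested.

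The second quantification gave higher levels for nearly every remodelling gene. The median log2 ratio of the second to the first over 35 genes was 0.75, 0.53 and 0.50 in replicates 1, 2 and 3, or 0.60 ± 0.14, beside 0.67 ± 0.11 over 10235 protein-coding genes. In all libraries 34 of the 35 were higher in the second, the exception being Ino80b, which was lower in replicate 2. The rank order was alike, with a Spearman rho of 0.969 across the 35 genes, which share their reads and are not independent. The largest mean log2 ratios were 1.5 in Smarcd3, 1.2 in Smarca5, 1.19 in Smarca2, 1.07 in Ino80c and 1.07 in Smarcad1, and the smallest was 0.10 in Chd3.

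**Figure D5:**
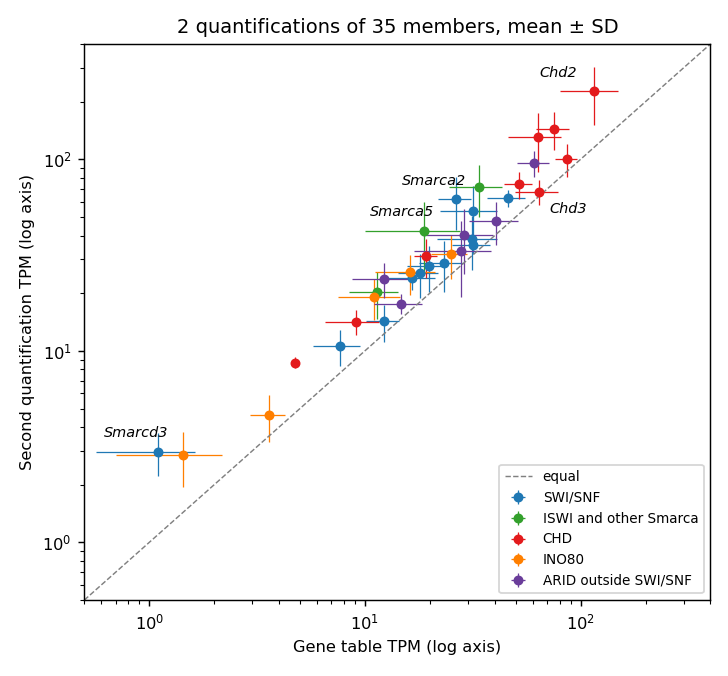
Level of 35 remodelling genes in the second quantification against the gene table, both as TPM on log axes, with points at the mean and bars for the SD of 3 libraries. All points lie on or above the dashed line of equality, Smarcd3 and Smarca2 far above it and Chd3 close to it.

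Partner subunits with other names were mostly present as well, 74 of 78 (94.9%) at 1 TPM or more in all libraries, against 42.6% of all protein-coding genes. That 42.6% also stands beside each count of partners that passed given below. The median of the partners was 13.4 ± 3.96 TPM. Of 17 SWI/SNF partners, 14 passed. They were led by Actb, nuclear actin's gene, at 246 ± 126 TPM and the bromodomain gene Brd7 at 43.1 ± 13.1 TPM. The 3 that did not pass were Dpf1 at 0.42 ± 0.51 TPM, Dpf3 at 0.02 ± 0.02 TPM and Actl6b at 0.01 ± 0.01 TPM, which encode subunits of the neuronal form of the complex in mouse. Actl6a, the alternative to Actl6b, had 15.2, 15.2 and 22.1 TPM.

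Of 12 ISWI partners 11 passed, led by Baz2b at 109 ± 22.0 TPM and Baz1b, the WSTF subunit, at 66.4 ± 17.9 TPM. The lowest were Pole3 at 1.31 ± 0.51 TPM and Cecr2, known from the neural tube and germ line, at 0.72 ± 0.35 TPM. All 13 NuRD and ChAHP partners passed, from the deacetylase gene Hdac1 at 35.6 ± 16.3 TPM and Mta2 at 29.5 ± 4.38 TPM to Cdk2ap1 at 4.82 ± 1.58 TPM and Mbd3 at 3.74 ± 1.93 TPM. Each of these 13 genes had a lower mean than Chd4.

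All 10 INO80 partners passed. They ran from the actin-related Actr8 at 30.5 ± 10.02 TPM and Nfrkb at 21.6 ± 4.64 TPM to the AAA+ ATPase genes Ruvbl1 at 2.49 ± 0.89 TPM and Ruvbl2 at 1.69 ± 0.38 TPM. All 16 genes of the SRCAP and TIP60 complexes passed, from Trrap at 77.3 ± 14.4 TPM and Morf4l1 at 74.4 ± 16.7 TPM to Actr6 at 4.14 ± 1.24 TPM and Yeats4 at 3.05 ± 1.23 TPM. All 11 other Snf2-type ATPase genes passed. Atrx, which loads H3.3 at repeats, had 231 ± 54.5 TPM, above every one of the 38 genes in mean, and Btaf1 had 61.4 ± 19.7 TPM. Hells at 4.5 ± 1.70 TPM and Rad54b at 3.18 ± 1.54 TPM were lowest.

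Some of these levels touch other annotated genes. Of the 38 genes, 23 are overlapped by another gene and 17 by one on the opposite strand. Chd2 shares 2628 bases with 1810026B05Rik on its own strand, which held 76.9, 30.7 and 64.6 TPM, and Smarcc1 shares 123 bases with Dhx30 on the opposite one. How reads in such overlaps were divided was not tested.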

How the data were processed

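Chromatin RNA of 3 libraries of 1 group was analysed, so no test between groups was possible. Per the file headers, the deposited gene and first transcript tables hold expected counts and TPM, with the percent of each gene's abundance per isoform. A further deposited transcript table, the second quantification, holds estimated counts and TPM. Per the labels the assembly is mm10, and a text deposited beside the tables gives annotation M21. The aligner, the counting programs and the use of strand were not given in the sources used here.

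Members were found by symbol and class. They, the gene lists and the tests were chosen with earlier results of these data known. Levels are deposited TPM. Detection was 1 TPM in all 3 libraries, the floor 3 counts per library, and isoform shares by gene needed 50 expected counts in every library. Floors cover counting error only, and the libraries carry the same donor label, so the SD may be technical. Depth was 10974934 to 21376404 expected counts per library. Pseudocount 1 was used for log2 levels, which understates differences of low genes, and none for log2 ratios of gene pairs. Alternatives were other thresholds, pseudocounts and scales, the second quantification, protein-coding isoforms, counts scaled with edgeR 4.0.16 (TMM) or DESeq2 1.42.0 size factors on rounded expected counts, and each library left out. Python 3.11.15 and pandas 2.3.3 were used. Simulated data tested only the formula for library deviations and a simple share, not the other steps.

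Values were given for the 2 highest and 2 lowest genes of each family and partner list, all paired genes, the 5 highest and 3 lowest retained-intron shares, the 3 largest SDs and the 5 largest differences between quantifications. Other members named were added after their values were seen. Of the 38, 28 matched the RefSeq promoter table of GRCm38.p6. Non-coding genes with matching symbols were left out.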

Additional observations from a re-analysis of the deposited data

Results flagged for a closer look

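Signal was found in 2 non-coding genes whose symbols match but which were kept out of the 38, each above the limit of 3 counts per library. Ino80dos, a lincRNA gene that overlaps Ino80d on the opposite strand over 1590 bases, had 9.80, 3.65 and 9.69 TPM in replicates 1, 2 and 3, on 436.34 expected counts summed over the libraries. Smarca5-ps, a transcribed processed pseudogene of Smarca5 on chromosome 4, had 0.08, 0.08 and 0.16 TPM on 17.44 summed expected counts. Reads shared with Ino80d or Smarca5 were not tested for either.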

How the results depend on the processing

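The count of 33 genes at 1 TPM or more ranged from 31 to 36 over the other thresholds and the second quantification, and from 33 to 34 with 1 library left out. Leaving out a library was computed for 81 values. Apart from that count, each is a mean over libraries, set against the SD of the same 3 libraries. Such a mean cannot move by more than 1 SD when 1 library is left out, so that none did tells nothing. The log2 ratio of Smarca4 to Smarca2 was -0.014 without replicate 2 and 0.49 without replicate 1. Median levels depend on the scale. In the second quantification the median was 29.4 TPM for the 38 genes, 28.3 for SWI/SNF, 31.3 for ISWI and other Smarca, 70.9 for CHD and 19.1 for INO80. Rescaled to protein-coding TPM these were 93.1, 100.4, 67.7, 243.9 and 51.1, and ARID genes outside SWI/SNF had 122.9. The median of the 38 genes minus that of all protein-coding genes was 3.76 ± 0.14 on the log2(TPM + 1) scale. It was 4.97 with a pseudocount of 0.1, 3.22 in the second quantification and 4.74 after rescaling. Against the 12808 genes with a mean of 0.1 TPM or more it was 1.79. Of 36 alternatives for the partner list medians 13 moved by more than 1 SD, none of them from leaving out a library, which could not.

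In the second quantification the log2 ratio was -0.75 for Smarca4 to Smarca2, 1.84 for Smarcd1 to Smarcd3, -1.02 for Arid4b to Arid4a, 0.31 for Arid5a to Arid5b and 0.30 for Ino80 to Ino80d. In protein-coding isoforms alone it was 1.79 for Smarca4 to Smarca2, 1.18 for Arid1a to Arid1b, -2.51 for Smarcc1 to Smarcc2, -1.66 for Chd1 to Chd2, 2.28 for Chd8 to Chd7, -1.36 for Arid4b to Arid4a and -0.28 for Arid5a to Arid5b. The unresolved pairs Smarca4 to Smarca2 and Arid5a to Arid5b changed sign among these. The retained-intron share was 19.1% in expected counts.

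The median deviation of the 38 genes reversed on count scales. In replicates 1, 2 and 3 it was -0.23, 0.22 and -0.027 with TMM and -0.26, 0.24 and -0.037 with DESeq2 size factors. For these changes the cause was not tested. No paired analysis was possible because there is 1 group. Depth limits Smarca1 and Arid3c, at 3 counts or fewer in every library.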
